A study of Ovis aries with 6 samples.

Results

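The genes described here are complement components, the complement inhibitor SERPING1 and the pentraxin PTX3, measured in sheep cells with and without forced expression of the homeobox transcription factor MEOX2. They were sought by gene symbol among the 26425 rows of a gene expression table: 9 names were sought and 8 had a row (C1R, C1S, CFB, C5, C6, C7, SERPING1 and PTX3), while C3 matched no row by name and was not analysed here. The set was chosen by measured values: it was selected on the lower FPKM of C7 and PTX3 with MEOX2 in these same libraries, so the difference between MEOX2 and NC samples in the 8 genes is given as a description, with its standard error and without a p-value. The cells came from the stromal vascular fraction of sheep adipose tissue, the mixed fraction that holds fibroblast-like adipocyte precursors, and the labels name the cell type adipocyte. RNA was sequenced from 3 samples overexpressing MEOX2 and from 3 control samples labelled NC. The table's column names carry the prefix pHBLV in both groups, and no source used here states the promoter, the time in culture, the differentiation state or the animals. Separate animals or cultures are not named either, so a p-value covers no more than the spread among these 6 libraries, and that spread may be technical.

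Levels are in FPKM, a read count divided by the length of the gene and the depth of the library, and the reads recovered from these values totalled 11772772 to 12230863 per library. MEOX2 stood at 107.7 to 152.7 FPKM in MEOX2 samples and at 9.03 to 10.8 FPKM in NC samples (exact two-sided permutation test, p = 0.1, the smallest that 3 against 3 samples allow). Stromal markers were the most abundant of the marker lists, with summed levels of 20886 to 22819 FPKM in MEOX2 samples and 19981 to 21371 FPKM in NC samples, led by COL1A1. Hepatocyte markers summed to at most 1.02 FPKM in MEOX2 samples and 1.08 FPKM in NC samples, with TTR at 0 reads and FGB the highest of the 4. The 6 endothelial markers with a row summed to at most 3.40 FPKM in MEOX2 samples and 3.18 FPKM in NC samples, led by EGFL7, and the 5 mesothelial and epithelial markers to at most 3.17 FPKM in MEOX2 samples and 2.87 FPKM in NC samples, led by KRT8 and with EPCAM at 0 reads. The pericyte and smooth muscle list was led by PDGFRB, at 134.8 ± 15.0 FPKM in MEOX2 samples and 136.3 ± 3.34 FPKM in NC samples (SD, n = 3 each). Of its 4 tested markers 1 rose, against 1.51% of all tested genes called higher. The riser, CSPG4, a proteoglycan of pericytes, was at 20.7 ± 2.01 FPKM in MEOX2 samples and 14.5 ± 0.352 FPKM in NC samples (SD, n = 3 each), a log2 change of 0.48 (limma adjusted p = 0.0321). The CSPG4 call was lost without any one library (adjusted p up to 0.134), without a filter on low genes, without the intensity trend and with the replicate number as a block.

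Complement is a cascade of secreted proteins that marks targets for uptake and can pierce membranes. In the classical pathway, C1q bound to a target activates the serine proteases C1r and C1s. In the alternative pathway, factor B, the product of CFB, supplies the protease of the C3 convertase. Cleavage of C5 starts the terminal pathway, in which C6, C7, C8 and C9 assemble on a membrane. SERPING1 encodes C1 inhibitor, which inactivates C1r and C1s. PTX3 is a long pentraxin, a soluble pattern recognition protein that binds C1q and also the hyaluronan-rich matrix. The liver makes most circulating complement, but fibroblasts and adipose stromal cells express several of these genes.

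The genes covered a wide range of levels. PTX3 ranked 10 of all rows by mean FPKM, and C1R, C1S, SERPING1 and CFB each stood above at least 86.1% of the 13121 tested genes, those averaging 1 FPKM or more. C7 stood above 33.7% of them. C6 and C5 did not pass that filter, so 6 of the 8 genes were tested. The order of mean levels was the same in both groups: PTX3, C1R, C1S, SERPING1, CFB, C7, C6 and C5. Within each group, no neighbours in that order overlapped.

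Of the 6 tested genes, C7, PTX3 and CFB were called lower with MEOX2 (limma adjusted p under 0.05 over all tested genes), none was called higher, and C1R, C1S and SERPING1 were not called. Over all 13121 tested genes, 1.16% were called lower, 1.51% higher and 2.67% in either direction. In 5 of the 6 every MEOX2 sample lay below every NC sample, an arrangement seen in 9.33% of all tested genes, while the opposite one was seen in 9.6% and either in 18.9%. All 6 had a negative log2 change, with a median of -0.31, and the median over all tested genes was -0.0027. Since the contrast was used to choose the set, nothing is read from these counts.

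**Figure D1:**
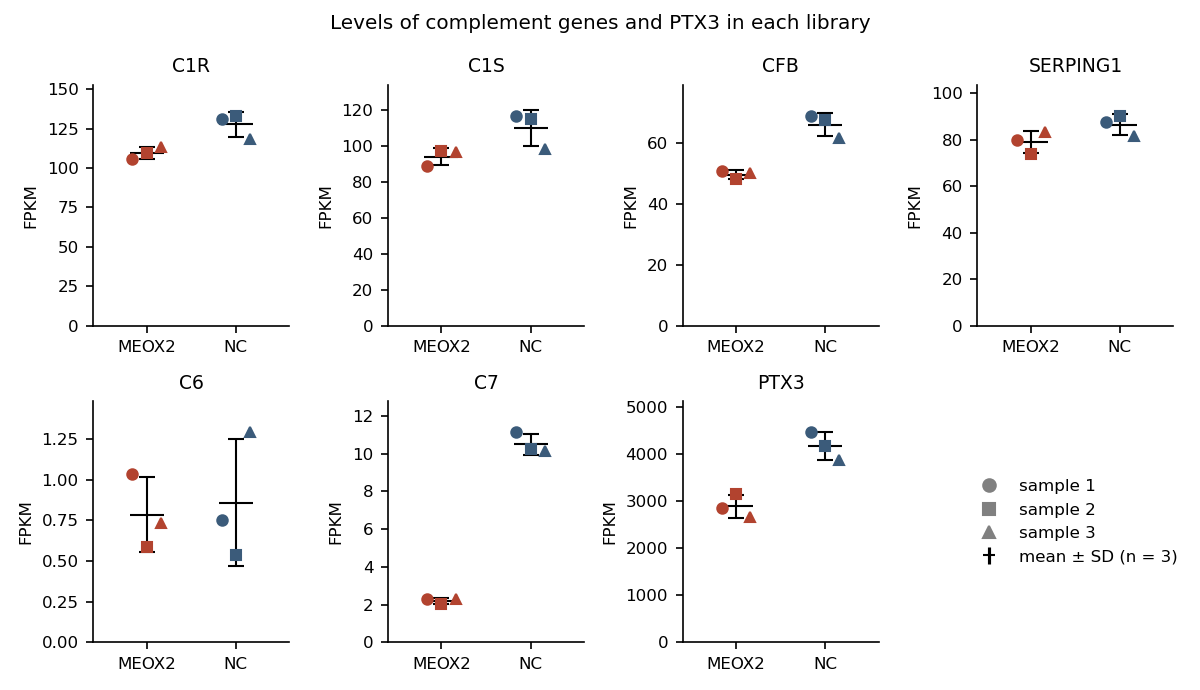
FPKM (vertical axes, starting at 0, each panel with its own scale) of 7 complement-related genes in the 3 MEOX2 and 3 NC libraries; points are samples, bars are the mean ± SD. C7 was at 2.03 to 2.31 FPKM in MEOX2 samples and 10.1 to 11.1 FPKM in NC samples, while C6 and SERPING1 overlapped between the groups; C5, at 0 in 5 libraries, is not drawn.

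**Figure D2:**
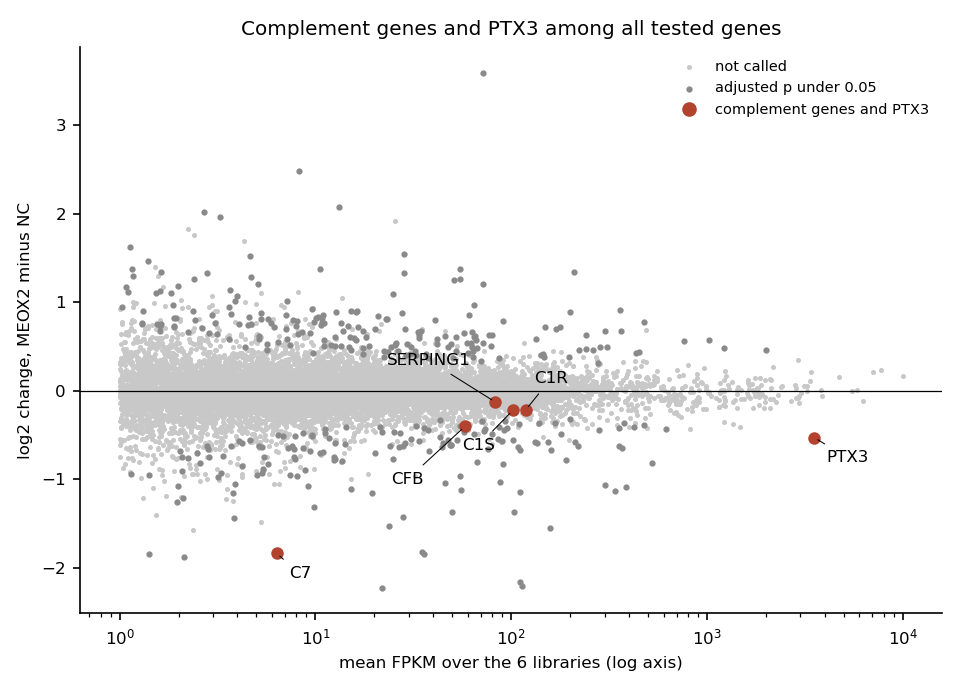
Each dot is one of 13121 tested genes, with its mean FPKM over the 6 libraries (horizontal log axis) and its log2 change, MEOX2 minus NC, on the log2(FPKM + 1) scale (vertical axis); dark grey dots passed an adjusted p of 0.05 and red dots are complement genes and PTX3. The 6 tested complement-related genes lie below 0, from -0.13 for SERPING1 to -1.84 for C7.

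C7 joins the growing membrane attack complex and lets it insert into lipid. Its row (ENSOARG00000009128, chromosome 16, 33481056 to 33542035, minus strand, gene length 7006 bases; no source used here names the genome build) held 2.28, 2.03 and 2.31 FPKM in MEOX2 samples 1 to 3, against 11.1, 10.2 and 10.1 FPKM in NC samples 1 to 3. The highest MEOX2 sample was thus far below the lowest NC sample, and the samples within each group lay close together. These values rested on 177 to 198 reads in MEOX2 samples and 876 to 935 reads in NC samples. The mean was 2.21 ± 0.154 FPKM in MEOX2 samples and 10.5 ± 0.548 FPKM in NC samples (SD, n = 3 each), 4.75-fold lower with MEOX2. On the log2(FPKM + 1) scale, which understates the change of low genes, the difference was -1.84 (SE 0.10), and with a pseudocount of 5 in place of 1 it was -1.104. C7 ranked between 11422 and 11775 of all rows in MEOX2 samples and between 6671 and 7082 in NC samples. C7 kept its call in each of the 16 alternatives run.

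Most of the tested markers of mature adipocytes moved with C7. Of 6 such markers, 5 were tested and 4 fell (ADIPOQ, FABP4, PLIN1 and CIDEC), where 1.16% of all tested genes were called lower. LPL was not called and its log2 change was not negative. LEP had 0 reads in every library. The calls of PLIN1 and CIDEC, but not those of ADIPOQ and FABP4, were lost when any single sample was left out, with limma adjusted p values of at most 0.0893 and 0.0984. PLIN1 rested on 14 to 62 reads per library and CIDEC on 20 to 52. The 6 markers together summed to 116.8 to 140.6 FPKM in MEOX2 samples and 283.9 to 338.0 FPKM in NC samples. FABP4, the highest of them, averaged 79.6 FPKM in MEOX2 samples and 235.3 FPKM in NC samples, so the sum mostly follows this gene. Whether a change in the share of differentiating cells takes part in the C7 difference was not tested, and in bulk RNA fewer cells of a type and less RNA per cell cannot be told apart.

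C6, the component that binds C5b before C7 does, lies on the same chromosome (33267815 to 33338265, plus strand), 142.79 kb from C7, with 1 row between them. C6 was at 1.03, 0.584 and 0.735 FPKM in MEOX2 samples 1 to 3, against 0.7497, 0.537 and 1.29 FPKM in NC samples 1 to 3. These values rested on 19 to 46 reads per library, the groups overlapped, and NC sample 3 was the highest. Per length, C7 exceeded C6 by 2.21, 3.48 and 3.14 times in MEOX2 samples 1 to 3, against 14.8, 19.0 and 7.86 times in NC samples 1 to 3. C5 (chromosome 2, 2450213 to 2539826, plus strand), the precursor of the C5a peptide and of C5b, had 1 read in NC sample 2 and 0 in the other libraries. A count of 0 allows up to 3 reads per library, which for C5 is 0.0478 to 0.0523 FPKM, so the gene was not detectable at this depth in 5 of 6 libraries. Such limits cover counting error only.

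No other row around C7 was called. Within 1000 kb on either side, the table held 12 rows including C7, of which 8 were tested and 1, C7 itself, was called. CARD6, a caspase recruitment domain protein gene 25361 bases from C7 and its nearest tested neighbour, had a log2 change of -0.13 (SE 0.08; limma adjusted p = 0.565). Next beyond it, SNORD72 had 0 reads. On the other side, MROH2B averaged 0 FPKM in MEOX2 samples and 0.0402 FPKM in NC samples and, like C6, was below the filter.

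**Figure D3:**
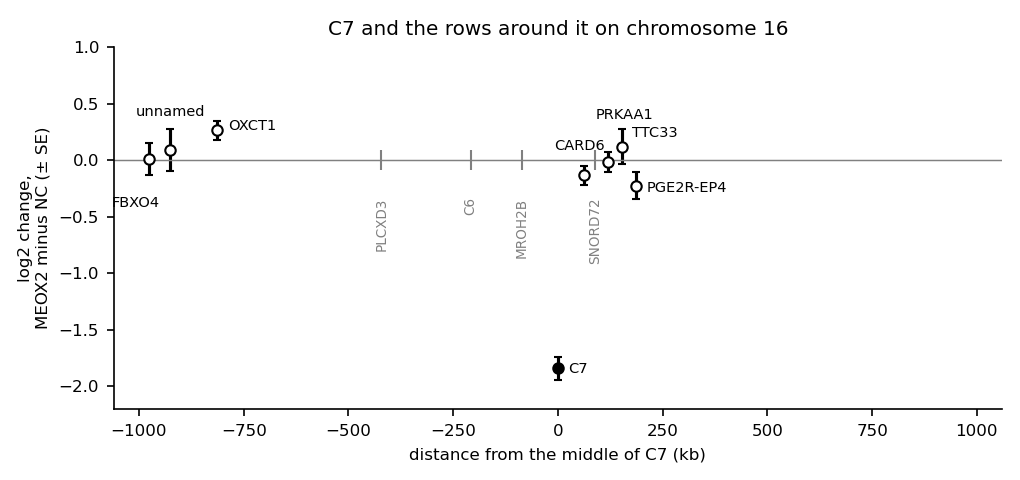
Log2 change, MEOX2 minus NC (vertical axis, ± SE) of the rows within 1000 kb of C7 on chromosome 16, by distance from the middle of C7 (kb); filled points passed an adjusted p of 0.05 and grey ticks at 0 mark rows below the filter, which have no estimate. Of 8 tested rows C7 alone was called, and CARD6, the nearest tested row, was at -0.13.

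PTX3 was among the most abundant transcripts of these cells. Its row (ENSOARG00000002754, chromosome 1, 228227639 to 228233020, minus strand, gene length 1143 bases) held 2852, 3148.5 and 2660.2 FPKM in MEOX2 samples 1 to 3, against 4457, 4175 and 3862.5 FPKM in NC samples 1 to 3. All 3 MEOX2 samples were below the lowest NC sample, NC sample 3. The mean was 2887 ± 246.0 FPKM in MEOX2 samples and 4165 ± 297 FPKM in NC samples (SD, n = 3 each), 1.44-fold lower, a log2 change of -0.53 (SE 0.09). PTX3 took 0.310% to 0.366% of all reads in MEOX2 samples and 0.449% to 0.514% in NC samples. By level it ranked 15 to 22 of all rows in MEOX2 samples and 8 in each NC sample. Its call was lost without MEOX2 sample 3, NC sample 1 or NC sample 2, where the log2 change was -0.47, -0.48 and -0.53, and without a filter on low genes.

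PTX3 lies within the span of VEPH1 on the opposite strand (228151991 to 228523896, plus strand). VEPH1, a pleckstrin homology domain protein gene, averaged 3.87 FPKM in MEOX2 samples and 5.28 FPKM in NC samples and was not called (limma adjusted p = 0.250). No source used here states whether the authors' counting used strand, and without it reads of overlapping genes cannot be told apart. The nearest other rows on either side, an unnamed row and a 7SK row at lower coordinates and a pair of U6 rows at higher ones, had 0 reads in every library.

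CFB (ENSOARG00000002951, chromosome 20, 26550405 to 26561667, minus strand) was the third gene called lower. It was at 50.9, 48.2 and 50.2 FPKM in MEOX2 samples 1 to 3, against 69.0, 67.9 and 61.8 FPKM in NC samples 1 to 3. MEOX2 samples varied little among themselves and all lay below NC sample 3, the lowest control. Means were 49.7 ± 1.40 FPKM in MEOX2 samples and 66.2 ± 3.91 FPKM in NC samples (SD, n = 3 each), 1.33-fold lower, a log2 change of -0.40 (SE 0.08) from 2626 to 3768 reads per library. The call was lost without any one of 5 libraries, all but NC sample 3, with log2 changes of -0.42, -0.38 and -0.41 without MEOX2 samples 1 to 3 and -0.37 and -0.39 without NC samples 1 and 2. It was also lost without the intensity trend and with the replicate number as a block. None of the 4 nearest rows, all tested, was called.

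C1R and C1S, the protease pair of the first complement complex, are neighbours on chromosome 3 that point toward each other, 13.4 kb apart with no row between them. C1R (207291311 to 207339991, plus strand) was at 105.5, 109.3 and 113.6 FPKM in MEOX2 samples 1 to 3, against 131.1, 132.9 and 118.6 FPKM in NC samples 1 to 3. C1S (207353408 to 207366557, minus strand) was at 88.5, 96.9 and 96.2 FPKM in MEOX2 samples 1 to 3, against 116.5, 115.0 and 98.2 FPKM in NC samples 1 to 3. For both genes every MEOX2 sample lay below every NC sample, but NC sample 3 came close to the MEOX2 samples. Log2 changes were -0.22 (SE 0.08) for C1R and -0.22 (SE 0.09) for C1S, and neither passed the threshold in the main analysis or in any of the 16 alternatives. The proteases kept nearly the same ratio in every library, with 1.13 to 1.19 times as much C1R as C1S per length in MEOX2 samples and 1.13 to 1.21 times in NC samples. An unnamed row on the same strand lies inside the span of C1R, at 68.8 FPKM in MEOX2 samples and 69.6 FPKM in NC samples, and reads shared between them cannot be told apart.

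SERPING1 (chromosome 15, 78057065 to 78071172, plus strand) was at 80.0, 73.9 and 83.6 FPKM in MEOX2 samples 1 to 3, against 87.8, 90.3 and 81.6 FPKM in NC samples 1 to 3. The groups overlapped, since MEOX2 sample 3 was above NC sample 3. The log2 change was -0.13 (SE 0.08), the smallest of the 6 tested genes. Relative to C1S, a protease it inhibits, SERPING1 stood at 0.763 to 0.904 in MEOX2 samples and 0.754 to 0.830 in NC samples, which overlap. PTX3 stood at 23.4 to 28.8 times C1R in MEOX2 samples and 31.4 to 34.0 times in NC samples. CFB stood at 0.441 to 0.482 times C1R in MEOX2 samples and 0.511 to 0.527 times in NC samples. Neither ratio to C1R overlapped between the groups. PTX3 was chosen for its lower level with MEOX2 and no share over all genes was computed, so nothing is read from this.

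One control library bore on the smaller differences. NC sample 3 was the lowest NC sample for all 6 tested genes, as it was for 38.6% of all tested genes, and on the component that held 22.2% of the variance of all genes it had the highest score, 21.16, against -14.17 to 8.124 in the other 5 libraries. Its level was 84.9% of the mean of NC samples 1 and 2 for C1S, 89.9% for C1R, 89.5% for PTX3, 90.2% for CFB, 91.6% for SERPING1 and 94.9% for C7. Without it, PTX3 was 1.495-fold, CFB 1.38-fold, C1S 1.23-fold, C1R 1.21-fold and SERPING1 1.12-fold lower in MEOX2 samples. C7 was 4.84-fold lower without it. As NC sample 3 was the lowest control for all 6 genes, leaving it out could only enlarge these folds, so nothing is read from their size. The calls of C7, PTX3 and CFB were all retained in that fit and no further gene of the set was added.

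**Figure D4:**
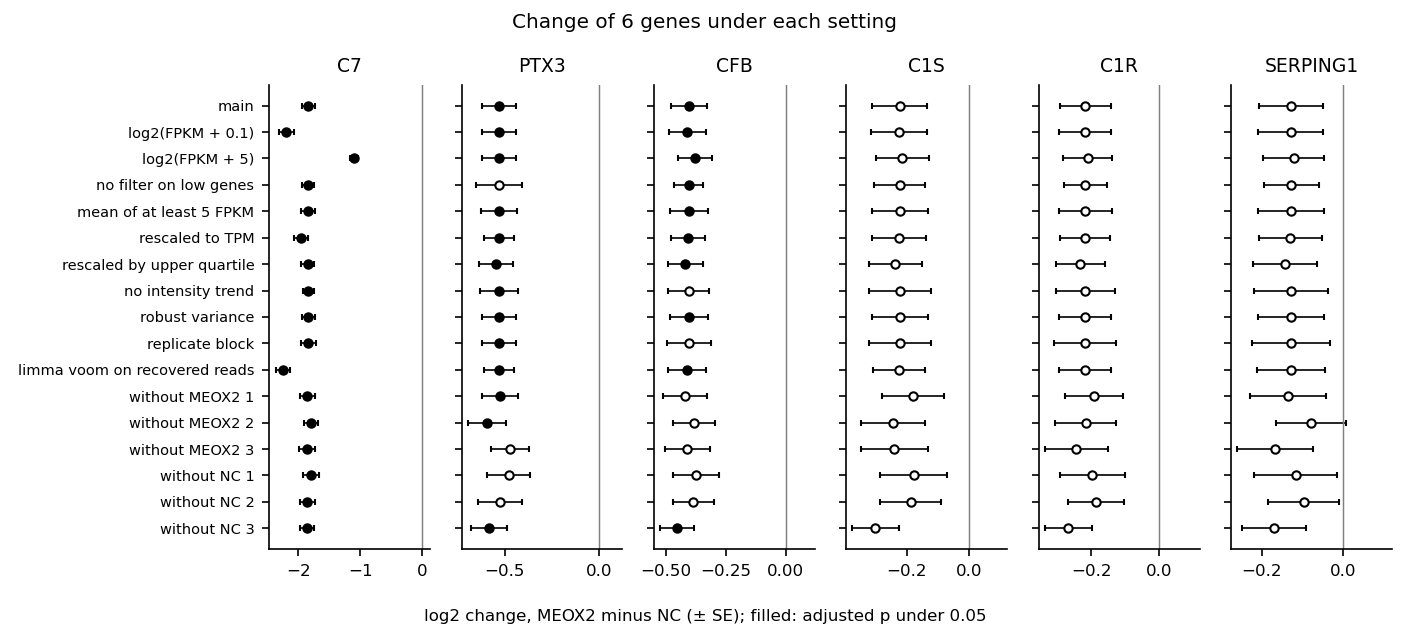
Log2 change, MEOX2 minus NC (horizontal axes, ± SE, each panel with its own scale) of the 6 tested genes in the main analysis (top row) and in 16 alternatives; filled points passed an adjusted p of 0.05. C7 is filled throughout, PTX3 and CFB are open without several of the libraries, and C1S, C1R and SERPING1 are open throughout.

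Other complement genes were sparse at the level of recognition and of the terminal pathway. Of 16 names of the classical and lectin pathway, 11 had a row, and 4 of their 12 rows were tested. Limma called none, 1 had an unadjusted p under 0.05 (as had 13.4% of all 13121 tested genes) and 1, COLEC12, was called lower by limma voom on the recovered reads. Over all tested genes, limma voom called 4.37% in either direction and 2.02% lower, a larger share than the main fit. C1QA, C1QB and C1QC, the subunits of C1q that macrophages mainly make, had 0 reads in every library, which allows at most 0.0537, 0.351 and 0.322 FPKM. Of 10 macrophage and leukocyte markers with a row, 4 were tested and none was called by limma, against 1 with an unadjusted p under 0.05 and 1 (CD163, lower) by limma voom. CD14, their most abundant, was at 117.0 ± 7.01 FPKM in MEOX2 samples and 105.2 ± 4.42 FPKM in NC samples (SD, n = 3 each). COLEC12, a scavenger receptor with a collectin domain, had a log2 change of -0.42 (limma adjusted p = 0.0736), C1RL, a relative of C1r, -0.20 (adjusted p = 0.556) and MASP1, a protease of the lectin pathway, 0.05 (adjusted p = 0.902). The pair of rows named C4, each with at most 0.721 FPKM in any library, was below the filter. Of 6 names of the alternative and terminal pathway outside the set, 5 had a row and none passed the filter. C8A and C8B had 0 reads, C9 at most 0.0976 FPKM, and CFD, the adipocyte protease adipsin, 0.515 to 1.47 FPKM in MEOX2 samples and 0.311 to 0.748 FPKM in NC samples; genes below the filter were named after their values were seen.

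Regulators and receptors gave 1 limma call, and limma voom, which called 4.37% of all tested genes, called CALR as well. Of 15 names of complement regulators, 11 had a row and 3 were tested (CD59, CD55 and F2RL1), with a median log2 change of 0.21, that of CD59. Neither limma nor its voom variant called any, and the unadjusted p of 2 (CD59 and F2RL1) was under 0.05, against 13.4% of all tested genes. CD59, the membrane protein that blocks the final assembly of the attack complex, was at 103.2 ± 6.52 FPKM in MEOX2 samples and 88.9 ± 2.70 FPKM in NC samples (SD, n = 3 each; log2 change 0.21, limma adjusted p = 0.241). CD55, which speeds the decay of C3 convertases, was at 0.790 FPKM in MEOX2 samples and 1.30 FPKM in NC samples (limma adjusted p = 0.418). CD55 passed the filter through the NC samples, so its place among the tested genes is not independent of its difference. F2RL1, on this list too, is a protease-activated receptor and not a complement protein. It had a log2 change of 0.61 (limma adjusted p = 0.162). Of 10 names of complement receptors, all had a row, 4 were tested and 1 rose, against 1.51% of all tested genes called higher. The unadjusted p of 2 of these receptors was under 0.05.

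C5AR2, the second receptor of the C5a peptide, was at 2.15, 2.28 and 2.88 FPKM in MEOX2 samples 1 to 3, against 0.490, 0.400 and 0.953 FPKM in NC samples 1 to 3. It passed the filter through the MEOX2 samples, so its place among the tested genes is not independent of its difference; with no filter its limma adjusted p was 0.0422. It rested on 25 to 36 reads in MEOX2 samples and 5 to 12 reads in NC samples. The rise was 1.101 on the log2 scale (SE 0.18; limma adjusted p = 0.0181), and 0.41 with a pseudocount of 5 and 2.003 by limma voom. Its call was lost without MEOX2 sample 2 or 3 or NC sample 1 or 2, where the log2 change was 1.13, 1.01, 1.05 and 1.01 (adjusted p up to 0.0895). CALR, calreticulin, an endoplasmic reticulum chaperone that also binds C1q at the cell surface, was at 1177 ± 48.1 FPKM in MEOX2 samples and 1527 ± 140.7 FPKM in NC samples (SD, n = 3 each; limma adjusted p = 0.0662). CALR was not called, but it was called lower by limma voom, after rescaling to TPM or by the upper quartile, and without NC sample 3 (adjusted p of 0.00566 to 0.247 over the 16 alternatives). ITGAX and C1QBP had log2 changes of -0.05 and -0.0067, with limma adjusted p values of 0.926 and 0.984.

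**Figure D5:**
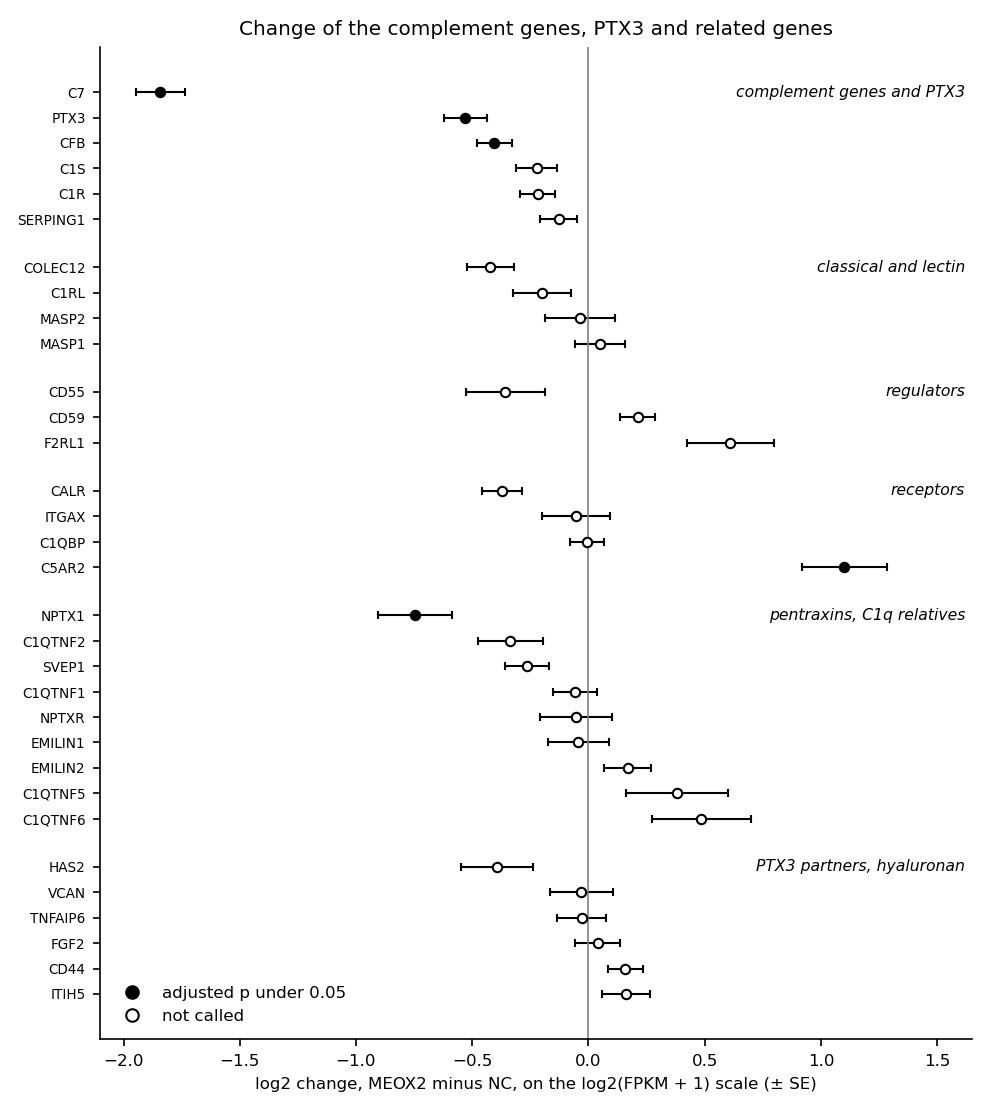
Log2 change, MEOX2 minus NC (horizontal axis, ± SE) of the 6 tested complement-related genes and of the tested genes of 5 related lists; filled points passed a limma adjusted p of 0.05. Among the lists NPTX1 (-0.75) and C5AR2 (1.101) were called.

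Among 14 pentraxins and C1q family relatives with a row, 9 were tested, 1 fell and 8 were not called, with a median log2 change of -0.05. The unadjusted p of 4 was under 0.05, against 13.4% of all tested genes, of which 2.67% were called in either direction. NPTX1, a neuronal pentraxin, was at 1.34, 2.18 and 2.21 FPKM in MEOX2 samples 1 to 3, against 4.02, 3.46 and 4.04 FPKM in NC samples 1 to 3, from 18 to 59 reads per library. It fell by 0.75 on the log2 scale (SE 0.16; limma adjusted p = 0.0480), and the call was lost without any one of the 6 libraries (log2 changes of -0.83 to -0.60, adjusted p up to 0.174), with a pseudocount of 0.1, without a filter on low genes, after rescaling to TPM and with the replicate number as a block. CRP and APCS, the short pentraxins of the liver, had 0 reads in every library. SVEP1, C1QTNF2 and C1QTNF6 had log2 changes of -0.26, -0.34 and 0.48 and were not called (adjusted p of 0.250, 0.341 and 0.371). Of 12 genes of the hyaluronan matrix and PTX3 partners with a row, 6 were tested, limma and voom called none, and the unadjusted p of 1 was under 0.05. The median log2 change was 0.0050. TNFAIP6, which works with PTX3 in the hyaluronan matrix and was singled out after its values were seen, was at 12.9 to 13.4 FPKM in MEOX2 samples and 11.7 to 15.3 FPKM in NC samples. HAS2, a hyaluronan synthase, CD44, the hyaluronan receptor, and ITIH5 had log2 changes of -0.39, 0.16 and 0.16 (limma adjusted p of 0.301, 0.427 and 0.580).

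The plasma serpins and contact system held 1 call. Of 14 genes with a row, 6 were tested, 1 rose and 5 were not called, with a median log2 change of -0.13. The unadjusted p of 3 was under 0.05, against 13.4% of all tested genes, of which 2.67% were called in either direction. SERPINF1, the secreted serpin PEDF, was at 175.7, 228.5 and 225.9 FPKM in MEOX2 samples 1 to 3, against 134.8, 124.0 and 124.9 FPKM in NC samples 1 to 3. It rose by 0.70 on the log2 scale (SE 0.11; limma adjusted p = 0.0127). That call was lost without MEOX2 sample 3 (0.64, adjusted p = 0.05997) or NC sample 2 (0.68, adjusted p = 0.0539), and without a filter on low genes (adjusted p = 0.0506). SERPINE2 had a log2 change of -0.42 and KNG1, kininogen, 0.25, and neither was called by limma (adjusted p of 0.0897 and 0.449). Limma voom called SERPINE2 lower, as it did 2.02% of all tested genes.

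Genes of the signals known to induce complement and PTX3 gave no limma call. Of 9 tested genes of acute phase and IL6 family signalling, limma and voom called none, the unadjusted p of 3 was under 0.05 (13.4% of all tested genes) and the median log2 change was -0.21; JAK1, SOCS3 and LIF had -0.23, -0.25 and -0.24 (limma adjusted p of 0.204, 0.337 and 0.357). Of 7 tested genes of interferon signalling, limma and voom called none and no unadjusted p was under 0.05, with a median log2 change of 0.07. For IFNGR1 and IRF1 the changes were 0.19 and 0.10 (SE 0.09 for each gene; limma adjusted p of 0.436 and 0.724). Of 13 tested genes of NF-kB and IL1/TNF signalling, none was called by limma and 6 had an unadjusted p under 0.05 (13.4% of all tested genes). Limma voom called 1 higher (TNFAIP3) and 1 lower (PTGS2), against 4.37% of all tested genes in either direction. PTGS2, the inducible prostaglandin synthase, was at 47.3 ± 0.660 FPKM in MEOX2 samples and 61.0 ± 4.79 FPKM in NC samples (adjusted p = 0.0594). TNFAIP3, a feedback inhibitor of NF-kB, was at 12.5 ± 0.555 FPKM in MEOX2 samples and 9.80 ± 0.208 FPKM in NC samples (SD, n = 3 each; adjusted p = 0.103), and NFKBIZ had a log2 change of -0.34 (adjusted p = 0.190).

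Rows without a symbol may bear on complement as well, and these were chosen after their values were seen. The table gives C5 the family label A2M_comp, for the protein fold that complement components share with alpha-2-macroglobulin. The same or a related label stands on 8 rows without a symbol, of which 3 were above the filter; it also stands on A2M, CD109 and other named genes, so it does not single out complement. No source used here pairs any of these rows with a gene name, and none is assigned to C3. ENSOARG00000005384 (chromosome 5, 15434573 to 15465862) was at 62.0 ± 2.49 FPKM in MEOX2 samples and 84.2 ± 8.28 FPKM in NC samples (SD, n = 3 each), a log2 change of -0.43 (limma adjusted p = 0.0396). Its call was kept only without NC sample 3 among the 6 fits that leave out a library (adjusted p up to 0.129 in the other 5), and it was lost without a filter on low genes, without the intensity trend and with the replicate number as a block. ENSOARG00000000114 and ENSOARG00000000751, both on unplaced contigs, had log2 changes of -0.32 and -0.37 and were not called (limma adjusted p of 0.0525 and 0.202). Limma voom called both lower, as it did 2.02% of all tested genes. ENSOARG00000000114 was also called with a filter of 5 FPKM, after rescaling to TPM or by the upper quartile, and with robust variance. In all 3 rows every MEOX2 sample lay below every NC sample, an arrangement seen in 9.33% of all tested genes. As the rows were chosen with their values known, nothing is read from this.

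The profiles nearest to those of C7 and PTX3 were found by the root mean square difference over the 6 samples of log2(FPKM + 1), each gene taken relative to its NC mean. This measure rests largely on the difference between MEOX2 and NC samples, by which C7 and PTX3 were chosen. The nearest genes are thus those with a fall of similar size, and nothing further is read from which genes they are. Nearest to C7 were a row named 7SK, FABP4, ADIPOQ, CCL20 and S100A12, at differences of 0.23, 0.26, 0.29, 0.35 and 0.39. FABP4 and ADIPOQ are products of fat cells, CCL20 is a chemokine, S100A12 is a calcium-binding protein of inflammation, and 7SK RNA has many near-identical copies, so its reads are uncertain. FABP4 was at 79.6 ± 9.72 FPKM in MEOX2 samples and 235.3 ± 26.3 FPKM in NC samples (SD, n = 3 each). Nearest to PTX3 were TF, LNP1, CHPT1, PPIF and TPRA1, at differences of 0.05 to 0.08. TF, the iron carrier transferrin, was at 53.4 ± 4.204 FPKM in MEOX2 samples and 75.7 ± 7.54 FPKM in NC samples (SD, n = 3 each). No gene near PTX3 in this measure was as abundant as PTX3, the highest mean among the 5 in NC samples being that of TF.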

How the data were processed

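The deposited file of the authors gives 1 FPKM value per gene for each of 3 MEOX2 and 3 NC samples. TRIzol extraction and NEBNext Ultra RNA libraries are described in the labels' protocols. The submitters' processing notes name, without roles, featureCounts 1.5.0-p3, HISAT2 2.0.5, DESeq2 1.20.0, CASAVA 1.8 and fastp. The sources used here do not state build, annotation or strand setting. FPKM multiplied by gene length came out as whole reads, after dividing by a library's own step, for 100% of values below 1000 reads (tolerance 0.001 read); limma voom on them called 574 genes.

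For the 13121 genes averaging 1 FPKM or more, limma 3.58.1 (R 4.3.3) was run on log2(FPKM + 1) (lmFit, eBayes with intensity trend, no covariates, MEOX2 minus NC), with Benjamini-Hochberg adjustment over all tested genes and a threshold of 0.05: 350 genes were called, 198 higher and 152 lower. Between replicates the chi-square per gene was 3.72 to 12.2, above the 1 of pure counting noise, and all were kept as separate samples. Such values cannot tell whether the samples came from separate cultures or animals. Python 3.11.15, pandas 2.3.3, scipy 1.17.1 and matplotlib 3.10.9 did the rest.

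Genes and lists were chosen with earlier results of these data known. Named were the set itself, list genes that were called and up to 3 others per list with the smallest p, the 5 profiles nearest to C7 and to PTX3, the rows around them and the most abundant and the called genes of each marker list. List names were matched by symbol or synonym, with the RefSeq gene table of ARS-UI_Ramb_v3.0; of 134 names in 10 lists 115 had a row and 61 rows were tested. Tried as well were voom, a replicate block, each library left out, and changed pseudocount, filter, scaling and variance settings. The table has 0 columns of other samples. Some genes that the naming rule picks are not reported here.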

Additional observations from a re-analysis of the deposited data

How the results depend on the processing

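The 350 genes called became 194 without a filter on low genes and 574 by voom, and 112 to 280 with a single library left out, fewest without NC sample 1. Of the complement genes and PTX3, 3 were called; 1 to 3 were with a single library left out, and C7 was called in all 16 alternatives. With the replicate number as a block 242 genes were called, 2 of them in the set (C7 and PTX3). Samples with the same number did not deviate together (correlations of -0.0747, 0.0204 and -0.00417), and pairs with different numbers gave -0.0854 to 0.0858. Such values cannot tell whether samples with the same number shared a batch, a culture or an animal, which the labels do not state. MEOX2 was called in every alternative. The median log2 change of all genes was -0.0027, and -0.0165 after upper-quartile rescaling. Log2 changes that changed sign belonged to genes that were not called, in fits without 1 library: MASP1 (-0.0088 to 0.17), ITGAX (-0.106 to 0.0305), C1QBP (-0.0428 to 0.0259), EGFL7 (-0.0245 to 0.362) and PDGFRB (-0.0905 to 0.0689). Fits that leave out a library have 5 samples in place of 6; why calls were lost was not tested. C5, C6, C5AR2 and NPTX1 rested on at most 59 reads in any library, which limits their precision. The same holds for CIDEC, CD55, C1QTNF6, EGFL7 and KRT8, and PLIN1 had at most 62 reads.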
